A study of Homo sapiens with 10 samples.

Results

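The interferon-stimulated genes (ISGs) examined here were 49 genes fixed by name: the IFIT, OAS, MX and IFITM families, the ISG15 system, cytosolic RNA sensors, STAT and IRF factors, and other antiviral effectors, with the genes of class I antigen presentation left out. All 49 symbols matched a row among the 57820 genes measured in each library. RNA was sequenced from HCT116 cells, an established human colorectal cancer line, in 10 libraries of 4 groups. Cells carried a short hairpin RNA (shRNA) against TEX10 (TEX10_sh, 3 libraries), with a control shRNA beside it (shNC1, 3 libraries), or an shRNA against RELA, which encodes the NF-κB subunit p65 (p65_sh, 2 libraries), again with a control shRNA of its own (shNC2, 2 libraries). The comparisons ask how the loss of TEX10 or of RELA changes gene expression in this line. All 4 groups, controls included, had been exposed to lentivirus for 24 h and kept in puromycin for 3 days, so every fold change compares infected and selected pools of cells and none compares with uninfected HCT116. The hairpins were carried by the pLKO.1 vector. Which of the hairpins designed against each target gave these libraries is not given in the sources used here, so the loss of the target and any other effect of a hairpin cannot be told apart.

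Type I and type III interferons bind receptors at the cell surface and activate the kinases JAK1 and TYK2, which phosphorylate STAT factors. STAT2 and IRF9 then enter ISGF3, a complex that binds the interferon-stimulated response element (ISRE) in the promoters of ISGs, and many ISG products then block viral entry, translation or replication. Several ISGs also keep a basal level without added interferon, through constitutive signaling or through IRF factors that read the same element.

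The knockdowns were checked first. TEX10 mRNA was at 74.9, 73.1 and 69.8 CPM in shNC1 and 31.2, 32.2 and 32.2 CPM in TEX10_sh, where CPM is counts per 1e6 reads after scaling between libraries, and values follow the order of the replicate numbers. All knockdown values were under all control values. For RELA the levels were 92.01 and 102 CPM in shNC2 and 29.8 and 31.5 CPM in p65_sh, again without overlap. The log2 fold changes were -1.18 (standard error 0.04, adjusted p = 1.32e-12) and -1.65 (standard error 0.06, adjusted p = 4.87e-32), with p from limma adjusted over all genes tested. In TEX10 knockdown cells RELA itself had a log2 fold change of -0.23 (standard error 0.03, adjusted p = 2.49e-05), with 80.4, 80.7 and 78.4 CPM in shNC1 and 66.95, 66.8 and 70.3 CPM in TEX10_sh.

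Recovered depth ran from 28606464 to 44658105 reads per library, so a gene with 0 reads could lie at up to 0.0678 to 0.105 CPM (3 reads, counting error only). The 7 epithelial markers EPCAM, CDH1, KRT8, KRT18, KRT19, VIL1 and CDX2 summed to 3743 to 3863 CPM in shNC1, 4454 to 4530 CPM in TEX10_sh, 4283 to 4419 CPM in shNC2 and 4229 to 4573 CPM in p65_sh. At an adjusted p under 0.01, CDH1, KRT8 and KRT19 rose after TEX10 knockdown (log2 fold changes 0.17, 0.22 and 0.56) and none fell. After RELA knockdown EPCAM, CDH1 and CDX2 rose (0.18, 0.16 and 0.34). VIL1 fell there (-0.84), with 47 and 54 reads in shNC2 and 49 and 7 in p65_sh. The sum of 8 immune markers was 8.48 to 8.64 CPM in shNC1, 6.88 to 7.26 CPM in TEX10_sh, 17.1 to 17.3 CPM in shNC2 and 11.5 to 11.9 CPM in p65_sh, while PTPRC and CD3E, the defining genes of leukocytes and T cells, were at 3 reads or fewer in every library. CD68, the marker with the highest level on that list, fell in both comparisons, with log2 fold changes of -0.51 (standard error 0.10, adjusted p = 0.000533) and -0.77 (standard error 0.10, adjusted p = 3.88e-09), and ITGAM rose after RELA knockdown (0.84 (standard error 0.21, adjusted p = 0.000691)). The 6 fibroblast markers summed to 42 to 45.2 CPM in shNC1, 40.3 to 41.4 CPM in TEX10_sh, 44.9 to 47.7 CPM in shNC2 and 46.1 to 51.6 CPM in p65_sh, nearly all of it COL1A1, while PDGFRB was under 1 CPM and COL1A2, DCN, LUM and THY1 were at 3 reads or fewer in every library. The 3 endothelial markers with a row summed to 1.19 to 2.2 CPM, and CDH5 was at 3 reads or fewer. The part of these markers in the results was not tested. The share of mitochondrial reads was 6.45% to 7.42%. Whether the libraries of a group came from separate cultures is not stated, so p-values cover only the spread among these libraries, and that spread may be technical. The experiments were scaled and controlled separately, and the levels of shNC1 and shNC2 are set side by side without comparison.

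More ISGs rose than fell in TEX10 knockdown cells, and in RELA knockdown cells ISGs moved in both directions. Of the 49 genes, 43 passed the filter on low reads in the TEX10 comparison and were tested. At an adjusted p under 0.01, 23 rose, 3 fell (IFITM1, IFI27 and IRF7) and 17 did not pass. Over all 17257 genes tested there, 21.6% rose and 19.0% fell. The median log2 fold change of the 43 ISGs was 0.29, against 0.002 over all genes tested. In the RELA comparison 42 ISGs were tested, and 12 rose, 7 fell (OAS3, IFITM2, IFITM3, ISG15, HERC5, IRF7 and IRF9) and 23 did not pass. Every knockdown library lay above every control library for 29 of the 43 ISGs after TEX10 knockdown and below for 5, which was so for 30.4% and 28.3% of all genes tested. After RELA knockdown the counts were 23 and 10 of 42, against 34.6% and 33.4% of all genes. By adjusted p, the shares over all 16814 genes tested were 14.4% higher and 15.8% lower, and the median log2 fold change was 0.13 for the ISGs and 0.006 for all genes. Set against these backgrounds, 53.5% of the tested ISGs rose and 6.98% fell after TEX10 knockdown, and 28.6% rose and 16.7% fell after RELA knockdown, the last share being close to that of all genes. The 23 rises and the 29 genes above their controls after TEX10 knockdown include SAMD9L, which passed the filter only through the TEX10_sh libraries. The 23 genes above their controls after RELA knockdown include IFI44, which passed only through the p65_sh libraries. Neither gene adds support to those counts. The list was chosen with earlier results of these data known, and the shares of the list were not tested against those of all genes. The rises after TEX10 knockdown were small, from 0.15 to 0.80 on the log2 scale, and those after RELA knockdown ran from 0.19 to 1.65. All fold changes were computed on log2(CPM + 0.5), so genes with levels near 0.5 CPM changed by more than these values show. In RNA from a whole culture, fewer cells expressing a gene and less RNA per cell cannot be told apart.

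**Figure D1:**
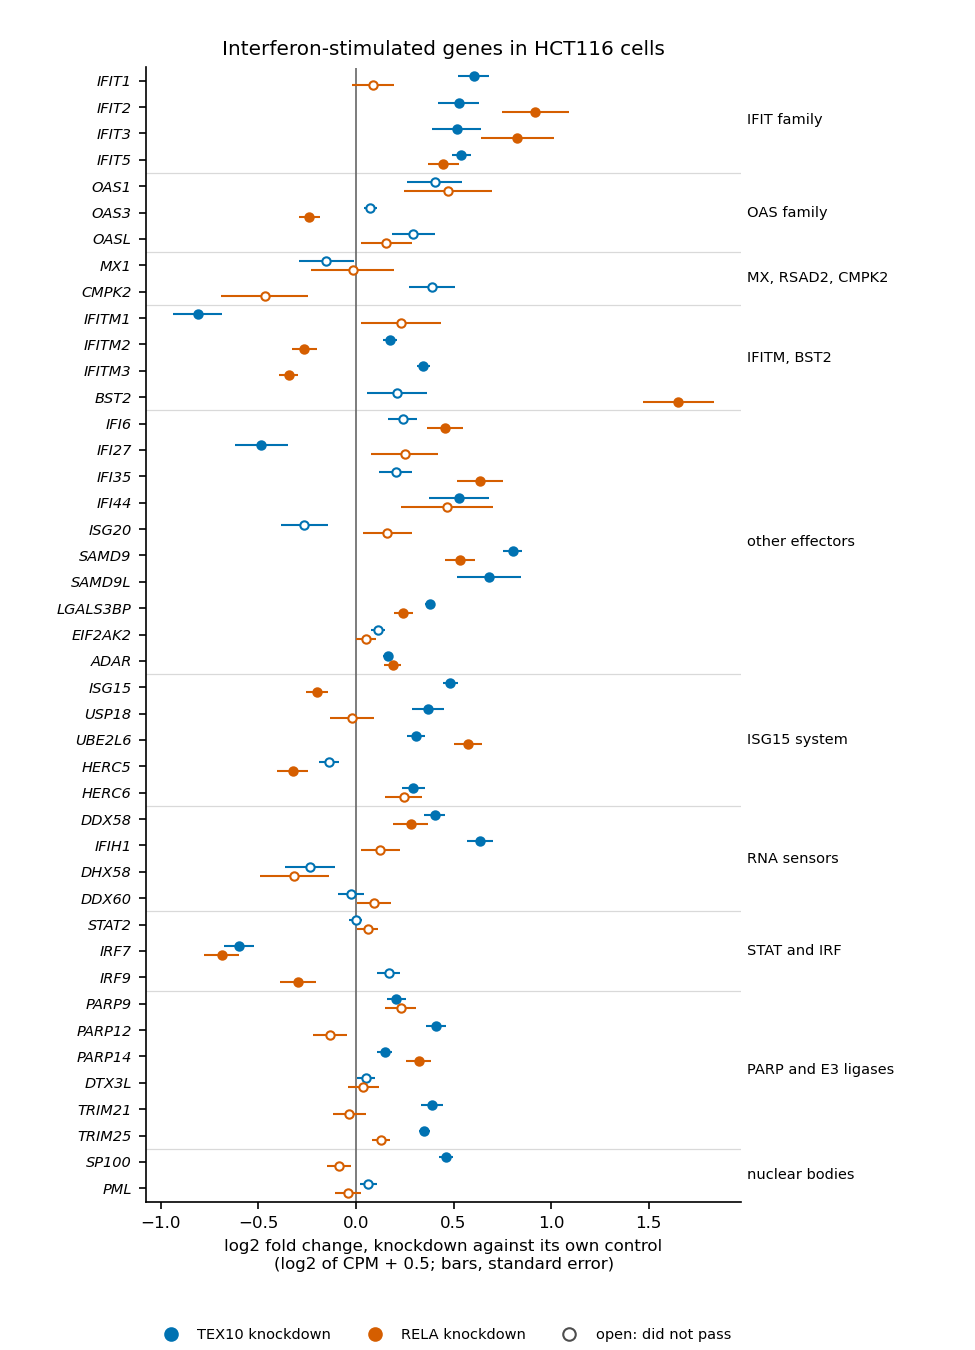
Log2 fold change of each tested ISG (horizontal axis, log2 of CPM + 0.5) after TEX10 knockdown (blue, 3 against 3 libraries) and RELA knockdown (orange, 2 against 2), grouped by role. Points are estimates, bars their standard error, filled points passed at adjusted p under 0.01. Right of 0 lie 34 of 43 blue and 27 of 42 orange points, with BST2 farthest right at 1.65.

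Several ISGs were near the limit of detection in this line. OAS2, MX2, RSAD2, IFI44L, XAF1 and GBP1 failed the filter in both comparisons. OAS2, an RNA-activated 2-5A synthetase, was highest at 0.228 CPM (10 reads, shNC1 replicate 1), and RSAD2 (viperin), which makes a chain-terminating nucleotide, at 0.182 CPM (8 reads) in the same library. MX2 reached at most 0.0904 CPM, XAF1 0.0912 CPM, IFI44L 0.0701 CPM and GBP1 0.0692 CPM, which are 2 to 4 reads. SAMD9L, a relative of SAMD9, was tested only after TEX10 knockdown and passed the filter through the knockdown libraries, with 11, 8 and 2 reads in shNC1 and 13, 23 and 27 in TEX10_sh. Its fold change therefore adds nothing to the count of rises as support. For that gene the log2 fold change was 0.68 (standard error 0.16, adjusted p = 0.0023), and it ran from 0.43 with a pseudocount of 1 to 1.67 with edgeR and 1.70 with DESeq2. Here and below a call counts as lost where the adjusted p was 0.01 or more under an alternative setting, that is another pseudocount, filter, test or scaling, or 1 library left out, and a value after "at" is the adjusted p without that library. The SAMD9L call was lost under 3 of 15 alternatives, without shNC1 replicate 3 at 0.0134, without TEX10_sh replicate 2 at 0.0133 and without TEX10_sh replicate 3 at 0.0125, in a range of adjusted p from 0.00159 to 0.0134.

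The promoters of these genes can be read against the ISRE. The set of RefSeq promoters used here, on GRCh38.p14, holds windows of 300 bases, from 250 before to 50 after the gene start. It had a window for 40 of the 49 genes and none for IFIT2, OAS2, OASL, MX2, IFITM2, USP18, DHX58, IRF7 and PML. The ISRE core, GAAA and GAAA with any 2 bases between them, searched on both strands, was present in 25 of the 40 windows (62.5%), against 3.57% of all 35116 windows of that length. Among genes that rose after TEX10 knockdown it was in 12 of 20 windows (60%), and among those tested that did not rise in 11 of 16 (68.8%). After RELA knockdown the counts were 7 of 11 (63.6%) and 16 of 24 (66.7%). The shares of the genes that rose and of the others lay within 10 percentage points of each other in both comparisons, and no test was made. The stretches below show it for genes whose levels are given in the paragraphs that follow. First come those that rose after both knockdowns, each 5′ to 3′ on the strand of the gene with the ISRE core, or its reverse complement, in capitals.
IFIT3: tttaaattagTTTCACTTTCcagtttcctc
IFIT5: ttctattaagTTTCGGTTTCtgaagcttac
SAMD9: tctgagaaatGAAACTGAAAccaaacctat
LGALS3BP: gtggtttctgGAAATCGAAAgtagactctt
PARP14: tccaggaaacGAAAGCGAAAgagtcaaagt
Their positions are chr10:89327865-89327894 (+) for IFIT3, chr10:89414513-89414542 (+) for IFIT5, chr7:93118096-93118125 (-) for SAMD9, chr17:78979962-78979991 (-) for LGALS3BP and chr3:122680800-122680829 (+) for PARP14, with the strand of the gene in parentheses. IFIT5 held 3 matches in its window and IFIT3 held 2.

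The next set holds genes on which the effect of the knockdowns differed. OAS3 also differed and held 2 matches, but its stretches are not printed.
IFIT1: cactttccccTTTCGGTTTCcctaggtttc
ISG15: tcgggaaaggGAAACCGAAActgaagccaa
IFITM3: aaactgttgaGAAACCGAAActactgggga
IFIH1: gaagagaatcGAAACAGAAAccaaagtcag
PARP12: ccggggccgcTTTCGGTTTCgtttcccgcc
TRIM21: cttctgagcgGAAACTGAAAgtgaaatagg
IFITM1: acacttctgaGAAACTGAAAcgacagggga
BST2: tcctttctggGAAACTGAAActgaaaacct
They lie at chr10:89392510-89392539 (+) for IFIT1, chr1:1013380-1013409 (+) for ISG15, chr11:320876-320905 (-) for IFITM3, chr2:162318686-162318715 (-) for IFIH1, chr7:140062942-140062971 (-) for PARP12, chr11:4393666-4393695 (-) for TRIM21, chr11:314024-314053 (+) for IFITM1 and chr19:17405741-17405770 (-) for BST2. The gamma-activated site (GAS), the motif of STAT dimers, TTCNNNGAA (its own reverse complement), was in 8 of 40 windows (20%) against 7.66% of all windows, with 1 of 20 (5%) among genes that rose after TEX10 knockdown and 7 of 16 (43.8%) among those tested that did not. After RELA knockdown the order was the other way, with 3 of 11 (27.3%) among genes that rose and 5 of 24 (20.8%) among the others. An NF-κB motif, GGG and TTTCC with any 2 bases between them on either strand, was in 3 of 40 windows (7.5%; OAS3, DDX58 and IFIH1) against 1.91% of all windows. These matches are descriptions of letters in a window and were not tested.

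All 4 IFIT genes of the list were called higher after TEX10 knockdown, where 21.6% of all genes tested were, although the calls of IFIT2 and IFIT3 depended on the setting. IFIT proteins bind foreign RNA or each other and hold back the translation of viral RNA. IFIT1, which binds RNA whose cap is incompletely methylated, was at 6.54, 5.65 and 5.74 CPM in shNC1 and 9.24, 9.15 and 9.59 CPM in TEX10_sh. All TEX10_sh values exceeded all shNC1 values, and the log2 fold change was 0.60 (standard error 0.08, adjusted p = 8.47e-06). In the RELA experiment IFIT1 was at 10.7 and 8.52 CPM in shNC2 and 10.04 and 10.3 CPM in p65_sh, and the groups overlapped (log2 fold change 0.09 (standard error 0.11, adjusted p = 0.548)). The TEX10 effect exceeded the RELA effect by 0.52 (standard error 0.14, adjusted p = 0.00633) on the log2 scale. That last call was lost under 9 of 15 alternatives, without shNC1 replicate 2 at 0.0141, without shNC1 replicate 3 at 0.0119, without TEX10_sh replicate 1 at 0.011, without TEX10_sh replicate 2 at 0.0113, without TEX10_sh replicate 3 at 0.0155, without shNC2 replicate 1 at 0.0687, without p65_sh replicate 1 at 0.0253, without p65_sh replicate 2 at 0.0189 and with no filter on low values, in a range of adjusted p from 0.00157 to 0.0687.

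IFIT2 and IFIT3, neighbours on chromosome 10 that work in complex with IFIT1, moved alike in both experiments. IFIT2 was at 2.17, 2.38 and 2.13 CPM in shNC1 and 3.51, 3.55 and 3.21 CPM in TEX10_sh, a log2 fold change of 0.53 (standard error 0.10, adjusted p = 0.000477). After RELA knockdown it was at 1.33 and 1.39 CPM in shNC2 and 2.94 and 3.08 CPM in p65_sh, a larger estimate of 0.92 (standard error 0.17, adjusted p = 1.05e-05). Neither pair of groups overlapped, and with no filter on low values the TEX10 call was lost (adjusted p 0.000374 to 0.0111 over 16 alternatives). IFIT3 was at 1.44, 1.49 and 1.09 CPM in shNC1 and 2.11, 2.1 and 2.15 CPM in TEX10_sh and at 0.939 and 0.935 CPM in shNC2 and 1.87 and 2.24 CPM in p65_sh. Its log2 fold changes were 0.52 (standard error 0.12, adjusted p = 0.00227) and 0.83 (standard error 0.19, adjusted p = 0.000261), again with no overlap. Both calls depended on the setting. After TEX10 knockdown the call was lost under 4 of 16 alternatives, without shNC1 replicate 3 at 0.0157, without TEX10_sh replicate 3 at 0.0104, with no filter on low values and with DESeq2, in a range of adjusted p from 0.00172 to 0.0289, and after RELA knockdown it was lost under 3 of 14 alternatives, without p65_sh replicate 2 at 0.0161, with no filter on low values and with DESeq2, in a range of adjusted p from 0.000182 to 0.028. IFIT5, a broader RNA binder of the family, was more abundant in reads, at 19.6, 20.1 and 18.97 CPM in shNC1 and 29.7, 28.3 and 28.01 CPM in TEX10_sh and at 19.1 and 18.7 CPM in shNC2 and 28.5 and 23.5 CPM in p65_sh. Both rises held under every alternative tried, at log2 fold changes of 0.54 (standard error 0.05, adjusted p = 1.18e-07) and 0.45 (standard error 0.08, adjusted p = 5.39e-06). The difference between the TEX10 and RELA effects was not called for IFIT2, IFIT3 or IFIT5 (adjusted p = 0.0918, 0.268 and 0.507). IFIT2 shares 356 exon bases with the gene AL353751.1 and 65 with LIPA in GENCODE v29, and the library kit does not mark strand, so reads in the shared bases cannot be assigned.

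OAS proteins make 2-5A, the second messenger that activates RNase L, and OASL lacks that activity. The 3 tested members did not pass after TEX10 knockdown. For each, every knockdown library lay above every control, which was so for 30.4% of all genes tested. OAS3 was at 80.8, 82.2 and 78.7 CPM in shNC1 and 86.5, 84.2 and 83.7 CPM in TEX10_sh, with all knockdown libraries slightly above the controls (log2 fold change 0.07 (standard error 0.03, adjusted p = 0.0662)). After RELA knockdown it was at 74.8 and 78.5 CPM in shNC2 and 63.1 and 66.7 CPM in p65_sh, all knockdown libraries below the controls, and it fell by a log2 fold change of -0.24 (standard error 0.05, adjusted p = 0.000232). This fall was lost under 1 of 14 alternatives, without shNC2 replicate 2 at 0.0257, in a range of adjusted p from 3e-06 to 0.0257. The effects differed by 0.31 (standard error 0.06, adjusted p = 0.000249). OAS1 was at 0.752, 0.994 and 0.799 CPM in shNC1 and 1.12, 1.56 and 1.18 CPM in TEX10_sh and at 0.55 and 0.381 CPM in shNC2 and 0.673 and 1.02 CPM in p65_sh. Its knockdown libraries were above their controls in both experiments, an order found in 30.4% of all genes after TEX10 knockdown and 34.6% after RELA knockdown. Neither log2 fold change passed, at 0.40 (standard error 0.14, adjusted p = 0.0249) and 0.47 (standard error 0.22, adjusted p = 0.0866). With edgeR the TEX10 estimate was 0.60. OASL, at 3.6, 2.85 and 3.43 CPM in shNC1 and 3.83, 3.98 and 4.63 CPM in TEX10_sh and at 4.57 and 4.88 CPM in shNC2 and 5.2 and 5.43 CPM in p65_sh, had log2 fold changes of 0.29 (standard error 0.11, adjusted p = 0.0335) and 0.16 (standard error 0.13, adjusted p = 0.358), which did not pass either. OAS1 shares 92 exon bases with an antisense gene, AC004551.1.

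MX1, a dynamin-like GTPase that blocks viral nucleocapsids, was at 1.03, 1.2 and 1.45 CPM in shNC1 and 1.26, 0.966 and 0.927 CPM in TEX10_sh and at 1.13 and 0.692 CPM in shNC2 and 1.04 and 0.736 CPM in p65_sh. The groups overlapped in both experiments, and the log2 fold changes were -0.15 (standard error 0.14, adjusted p = 0.393) and -0.02 (standard error 0.21, adjusted p = 0.961). CMPK2, a mitochondrial nucleotide kinase encoded beside RSAD2, was at 1.23, 1.18 and 1.09 CPM in shNC1 and 1.69, 1.65 and 1.72 CPM in TEX10_sh. Its TEX10_sh libraries lay above the controls, and its log2 fold change of 0.39 (standard error 0.12, adjusted p = 0.0117) narrowly missed the threshold. In the RELA experiment it was at 1.52 and 0.658 CPM in shNC2 and 0.581 and 0.631 CPM in p65_sh, where shNC2 replicate 1 stood apart from the other 3 libraries (log2 fold change -0.47 (standard error 0.22, adjusted p = 0.0881)). MX1 shares 236 exon bases with the antisense gene AP001610.1.

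**Figure D2:**
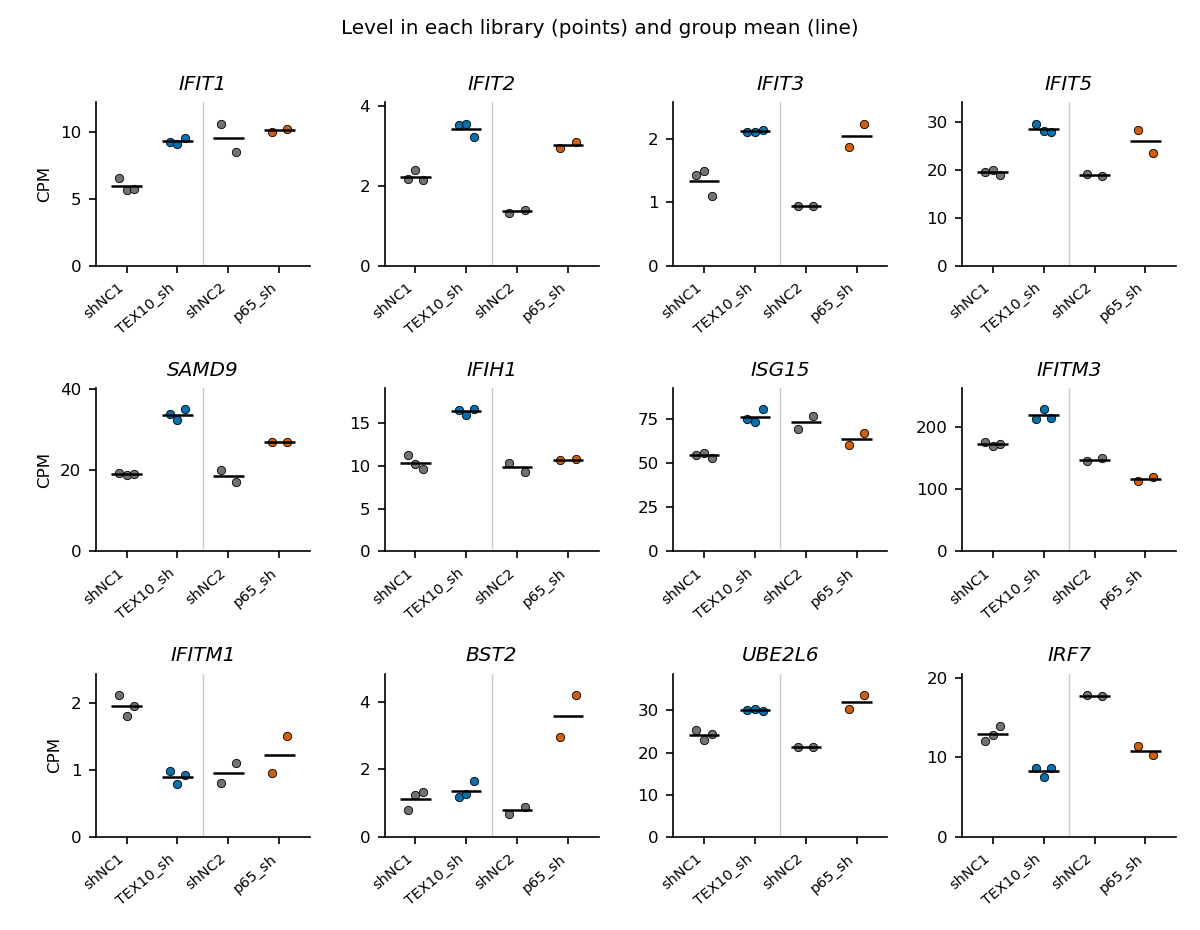
CPM (vertical axis, from 0) of 12 ISGs in each of the 10 libraries, by group. Points are libraries and lines group means; the grey vertical line separates the experiments, which were scaled separately. IFIT2, IFIT3, IFIT5, SAMD9 and UBE2L6 are higher in both knockdowns, ISG15 and IFITM3 move in opposite directions, and IRF7 is lower in both.

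The IFITM genes, which encode membrane proteins that keep viruses from fusing with endosomes, split within the family and between the knockdowns. IFITM3 was at 175, 169 and 172 CPM in shNC1 and 213, 229 and 215 CPM in TEX10_sh, and at 145 and 150.1 CPM in shNC2 and 113 and 119 CPM in p65_sh. It was higher in every TEX10_sh library and lower in every p65_sh library. This gave log2 fold changes of 0.35 (standard error 0.03, adjusted p = 1.28e-07) and -0.34 (standard error 0.05, adjusted p = 2.39e-08), and both held under every alternative tried. The difference between the effects was 0.69 (standard error 0.05, adjusted p = 5.49e-09). IFITM2 did the same at smaller size, with 47.2, 49.4 and 50.9 CPM in shNC1 and 55.1, 55.6 and 55.8 CPM in TEX10_sh and 42.5 and 41.2 CPM in shNC2 and 35.5 and 33.98 CPM in p65_sh. Its log2 fold changes were 0.17 (standard error 0.04, adjusted p = 0.000923) and -0.27 (standard error 0.06, adjusted p = 0.000474), with a difference of 0.44 (standard error 0.06, adjusted p = 2.24e-05). The TEX10 call was lost under 1 of 16 alternatives, without shNC1 replicate 1 at 0.0106, in a range of adjusted p from 0.000186 to 0.0106, and the RELA call was lost under 1 of 14 alternatives, without shNC2 replicate 1 at 0.0202, in a range of adjusted p from 2.78e-05 to 0.0202. IFITM1, which sits mainly at the cell surface, went the other way from its neighbours after TEX10 knockdown, at 2.12, 1.8 and 1.95 CPM in shNC1 and 0.984, 0.795 and 0.927 CPM in TEX10_sh. All 3 knockdown libraries were below the controls and the log2 fold change was -0.81 (standard error 0.13, adjusted p = 4.34e-05). These values rest on 93, 69 and 66 reads in shNC1 and 28, 28 and 41 in TEX10_sh. In the RELA experiment it was at 0.809 and 1.11 CPM in shNC2 and 0.949 and 1.51 CPM in p65_sh, overlapping groups with a log2 fold change of 0.23 (standard error 0.20, adjusted p = 0.387). The TEX10 effect minus the RELA effect was -1.04 (standard error 0.23, adjusted p = 0.00159), a call that was lost under 3 of 15 alternatives, without shNC2 replicate 1 at 0.0152, without p65_sh replicate 2 at 0.019 and with no filter on low values, in a range of adjusted p from 0.000608 to 0.0238.

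The 3 IFITM genes lie side by side on chromosome 11 and are close paralogs. IFITM1 and IFITM2 share 351 exon bases on the same strand in GENCODE v29, and IFITM3 shares 287 with AC136475.5 on the other strand. How reads that fit several places were counted is not given in the sources used here, so their split among the IFITM genes is uncertain.

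BST2 (tetherin), which holds budding virions at the cell surface, had the largest rise of the tested ISGs after RELA knockdown. It was at 0.68 and 0.9 CPM in shNC2 and 2.97 and 4.2 CPM in p65_sh, or 21 and 26 reads in shNC2 and 97 and 120 in p65_sh. Both p65_sh libraries lay well above both controls, and the log2 fold change of 1.65 (standard error 0.18, adjusted p = 3.37e-11) held under every alternative tried. In the TEX10 experiment it was at 0.798, 1.25 and 1.33 CPM in shNC1 and 1.19, 1.28 and 1.65 CPM in TEX10_sh, overlapping groups with a log2 fold change of 0.21 (standard error 0.15, adjusted p = 0.266). The TEX10 effect minus the RELA effect was -1.44 (standard error 0.25, adjusted p = 0.000181). With no filter on low values that difference was no longer called (adjusted p 5.85e-05 to 0.0101 over 15 alternatives).

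Among ISGs above 1 CPM in both groups, SAMD9 had the largest rise after TEX10 knockdown. SAMD9 restricts poxviruses and lies next to SAMD9L on chromosome 7. It was at 19.4, 18.9 and 19.1 CPM in shNC1 and 33.8, 32.3 and 34.99 CPM in TEX10_sh, and at 20.01 and 16.96 CPM in shNC2 and 26.8 and 26.9 CPM in p65_sh. Every knockdown library was above every control library in both experiments. They gave log2 fold changes of 0.80 (standard error 0.05, adjusted p = 8.69e-10) and 0.53 (standard error 0.08, adjusted p = 9.37e-08), and both held under every alternative tried. LGALS3BP, a secreted glycoprotein that binds galectin-3, was at 304, 300.5 and 299.6 CPM in shNC1 and 393, 390.2 and 393 CPM in TEX10_sh and at 250.3 and 271 CPM in shNC2 and 292 and 326 CPM in p65_sh. The groups did not overlap in either experiment, with log2 fold changes of 0.38 (standard error 0.03, adjusted p = 3.35e-09) and 0.24 (standard error 0.05, adjusted p = 2.46e-05). The RELA call was lost under 3 of 14 alternatives, without shNC2 replicate 1 at 0.0137, with no filter on low values and with DESeq2, in a range of adjusted p from 8.46e-09 to 0.0382. ADAR, the enzyme that edits adenosine to inosine in duplex RNA, rose by a small margin in both, at 394 ± 5.7 CPM in shNC1 and 440.4 ± 0.167 CPM in TEX10_sh (mean ± SD, n = 3 each) and at 370.0 ± 5.3 CPM in shNC2 and 422 ± 7.28 CPM in p65_sh (mean ± SD, n = 2 each). Its log2 fold changes were 0.16 (standard error 0.03, adjusted p = 4.88e-05) and 0.19 (standard error 0.04, adjusted p = 0.00027). That second call was lost under 2 of 14 alternatives, without shNC2 replicate 2 at 0.0187 and with no filter on low values, in a range of adjusted p from 9.49e-07 to 0.0187.

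IFI6 and IFI35 were called only in the RELA comparison, although the difference between the effects did not pass for either (adjusted p = 0.169 and 0.0224). IFI6, which guards against viral replication at the endoplasmic reticulum, was at 10.7 and 11.04 CPM in shNC2 and 14.6 and 15.7 CPM in p65_sh. The p65_sh libraries were above the controls (log2 fold change 0.46 (standard error 0.09, adjusted p = 5.16e-05)), and the TEX10 estimate was 0.24 (standard error 0.07, adjusted p = 0.0131). IFI35, a leucine zipper protein that binds the factor NMI, was at 5.92 and 5.61 CPM in shNC2 and 8.47 and 10.1 CPM in p65_sh. These groups did not overlap (log2 fold change 0.64 (standard error 0.12, adjusted p = 8.46e-06)), and the TEX10 estimate was 0.20 (standard error 0.08, adjusted p = 0.05). IFI27, a mitochondrial protein, was 1 of the 3 ISGs that fell after TEX10 knockdown, at 2.42, 1.78 and 2.13 CPM in shNC1 and 1.65, 1.14 and 1.31 CPM in TEX10_sh. The log2 fold change was -0.48 (standard error 0.14, adjusted p = 0.0071), a call that was lost under 6 of 16 alternatives, without shNC1 replicate 1 at 0.046, without shNC1 replicate 3 at 0.0183, without TEX10_sh replicate 2 at 0.0411, without TEX10_sh replicate 3 at 0.0263, with no filter on low values and with DESeq2, in a range of adjusted p from 0.00337 to 0.0609. In the RELA experiment it was at 2.07 and 1.7 CPM in shNC2 and 2.17 and 2.49 CPM in p65_sh, with a log2 fold change of 0.25 (standard error 0.17, adjusted p = 0.249). The TEX10 effect minus the RELA effect, -0.73 (standard error 0.22, adjusted p = 0.0135), was not called.

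IFI44, whose group mean was under 1 CPM in shNC1, had a log2 fold change of 0.53 (standard error 0.15, adjusted p = 0.00842) after TEX10 knockdown (0.84 with edgeR), with 29, 22 and 26 reads in shNC1 and 27, 55 and 48 in TEX10_sh. That call was lost under 12 of 15 alternatives, in a range of adjusted p from 0.00514 to 0.0595. Leaving out shNC1 replicate 1 gave 0.0251, shNC1 replicate 2 gave 0.0322, TEX10_sh replicate 2 gave 0.0595 and TEX10_sh replicate 3 gave 0.0175. After RELA knockdown IFI44 passed the filter through the p65_sh libraries and was not called (adjusted p = 0.11). The difference between its effects was not called either (adjusted p = 0.887). ISG20, an exonuclease, and EIF2AK2, the kinase PKR that stops translation when it binds duplex RNA, were not called in either comparison. ISG20 had log2 fold changes of -0.26 (standard error 0.12, adjusted p = 0.0745) and 0.16 (standard error 0.13, adjusted p = 0.327). EIF2AK2 had log2 fold changes of 0.11 (standard error 0.04, adjusted p = 0.0179) and 0.05 (standard error 0.05, adjusted p = 0.439).

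ISG15 is a ubiquitin-like protein that is joined to other proteins, and the genes of this system did not move as a unit. ISG15 was at 54.8, 55.96 and 53 CPM in shNC1 and 75.2, 73.7 and 80.6 CPM in TEX10_sh, all knockdown libraries above all controls. After RELA knockdown it was at 69.6 and 76.7 CPM in shNC2 and 60.1 and 67.3 CPM in p65_sh, both knockdown libraries below both controls. On the log2 scale these were changes of 0.48 (standard error 0.04, adjusted p = 3.49e-08) and -0.20 (standard error 0.06, adjusted p = 0.00369). The fall was lost under 4 of 14 alternatives, without shNC2 replicate 2 at 0.201, without p65_sh replicate 1 at 0.142, with no filter on low values and with DESeq2, in a range of adjusted p from 6.67e-05 to 0.201. The difference between the effects, 0.68 (standard error 0.07, adjusted p = 8e-07), held under every alternative tried.

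UBE2L6, the conjugating enzyme of ISG15, rose in both experiments, at 25.2, 22.98 and 24.4 CPM in shNC1 and 30.2, 30.3 and 29.8 CPM in TEX10_sh and 21.3 and 21.4 CPM in shNC2 and 30.4 and 33.6 CPM in p65_sh. Neither pair of groups overlapped, with log2 fold changes of 0.31 (standard error 0.05, adjusted p = 3.95e-05) and 0.57 (standard error 0.07, adjusted p = 1.69e-09) that held under every alternative tried. USP18, which removes ISG15 and also blocks the interferon receptor, was at 9.66, 8.03 and 7.78 CPM in shNC1 and 11.1, 11.5 and 10.6 CPM in TEX10_sh, a log2 fold change of 0.37 (standard error 0.08, adjusted p = 0.00116). Its RELA groups overlapped, at 7.48 and 8.45 CPM in shNC2 and 8.08 and 7.6 CPM in p65_sh (log2 fold change -0.02 (standard error 0.11, adjusted p = 0.912)). For USP18 the difference between the effects, 0.39 (standard error 0.13, adjusted p = 0.0326), was not called. HERC5, the main ISG15 ligase in human cells, was lower in the knockdown libraries of both experiments, at 20.6, 20.3 and 19.4 CPM in shNC1 and 18.3, 18.6 and 17.7 CPM in TEX10_sh and 22.4 and 22.9 CPM in shNC2 and 19.1 and 16.9 CPM in p65_sh. It was called only after RELA knockdown, with log2 fold changes of -0.14 (standard error 0.05, adjusted p = 0.0325) and -0.33 (standard error 0.08, adjusted p = 0.000662). The difference between the effects, 0.19 (standard error 0.09, adjusted p = 0.126), was not called. The RELA call was lost under 4 of 14 alternatives, without shNC2 replicate 2 at 0.0126, without p65_sh replicate 2 at 0.0307, with no filter on low values and with DESeq2, in a range of adjusted p from 7.9e-05 to 0.0307. Its neighbour HERC6 was higher in both, at 11.8, 12.03 and 11.8 CPM in shNC1 and 14.3, 15 and 14.8 CPM in TEX10_sh and 10.8 and 10.3 CPM in shNC2 and 12.1 and 13.1 CPM in p65_sh. Only the first passed, at 0.29 (standard error 0.06, adjusted p = 0.000483) against 0.24 (standard error 0.10, adjusted p = 0.0369), and the difference between those effects was not called (adjusted p = 0.748).

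The RNA sensors divided by gene. DDX58 encodes RIG-I and IFIH1 encodes MDA5, which detect short and long duplex RNA and signal through MAVS. IFIH1 was at 11.3, 10.2 and 9.68 CPM in shNC1 and 16.5, 16.02 and 16.6 CPM in TEX10_sh, with no overlap and a log2 fold change of 0.64 (standard error 0.07, adjusted p = 5.88e-07). In the RELA experiment it was at 10.4 and 9.28 CPM in shNC2 and 10.7 and 10.8 CPM in p65_sh, where both knockdown values lay just above the controls (log2 fold change 0.12 (standard error 0.10, adjusted p = 0.343)). The effects differed by 0.51 (standard error 0.11, adjusted p = 0.00134), a call that was lost under 1 of 15 alternatives, without shNC2 replicate 1 at 0.0139, in a range of adjusted p from 0.000771 to 0.0139. DDX58 was at 15.8, 15.5 and 14.7 CPM in shNC1 and 20.97, 20.6 and 19.6 CPM in TEX10_sh and 14.9 and 13.2 CPM in shNC2 and 18.3 and 16.1 CPM in p65_sh. The groups did not overlap in either experiment, and the log2 fold changes were 0.40 (standard error 0.05, adjusted p = 1.17e-05) and 0.28 (standard error 0.09, adjusted p = 0.0087). The second call was lost under 4 of 14 alternatives, without shNC2 replicate 2 at 0.17, without p65_sh replicate 1 at 0.165, with no filter on low values and with DESeq2, in a range of adjusted p from 0.00214 to 0.17. DHX58 (LGP2), which modulates both sensors, and DDX60, a helicase cofactor of RIG-I, were not called, with log2 fold changes of -0.23 (standard error 0.13, adjusted p = 0.137) and -0.02 (standard error 0.07, adjusted p = 0.777) after TEX10 knockdown and -0.32 (standard error 0.18, adjusted p = 0.151) and 0.09 (standard error 0.09, adjusted p = 0.412) after RELA knockdown.

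IRF7, the factor that amplifies type I interferon transcription, was the only ISG called lower in both comparisons. It was at 12.1, 12.8 and 13.9 CPM in shNC1 and 8.71, 7.58 and 8.73 CPM in TEX10_sh, and at 17.8 and 17.7 CPM in shNC2 and 11.4 and 10.3 CPM in p65_sh. Every knockdown library was below every control library. The log2 fold changes of -0.60 (standard error 0.08, adjusted p = 5.91e-06) and -0.69 (standard error 0.09, adjusted p = 5.28e-09) held under every alternative tried, and their difference was 0.09 (adjusted p = 0.622). Over the 16573 genes tested in both comparisons, 8.15% fell in both. IRF9, the DNA-binding part of ISGF3, was at 13.9, 13.7 and 15.2 CPM in shNC1 and 15.7, 16.3 and 16.3 CPM in TEX10_sh and 13.9 and 15.3 CPM in shNC2 and 11.5 and 12.2 CPM in p65_sh. TEX10_sh libraries were above their controls and p65_sh libraries below theirs, at log2 fold changes of 0.17 (standard error 0.06, adjusted p = 0.0257), which did not pass, and -0.30 (standard error 0.09, adjusted p = 0.00764). The RELA call was lost under 5 of 14 alternatives, without shNC2 replicate 1 at 0.011, without shNC2 replicate 2 at 0.135, without p65_sh replicate 1 at 0.0546, with no filter on low values and with DESeq2, in a range of adjusted p from 0.00387 to 0.135. The effects differed by 0.46 (standard error 0.10, adjusted p = 0.00129), which was lost under 1 of 15 alternatives, without shNC2 replicate 2 at 0.0128, in a range of adjusted p from 0.000652 to 0.0128. IRF9 shares 1838 exon bases with AL136295.5 on the same strand, so its reads may include that gene. STAT2 had log2 fold changes of -0.00 (standard error 0.03, adjusted p = 0.956) and 0.06 (standard error 0.05, adjusted p = 0.393), at 71.4 ± 0.854 CPM in shNC1 and 71.3 ± 1.9 CPM in TEX10_sh (mean ± SD, n = 3 each) and at 66.8 ± 0.0837 CPM in shNC2 and 69.7 ± 0.703 CPM in p65_sh (mean ± SD, n = 2 each).

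The ADP-ribosyltransferases and E3 ligases of the list rose after TEX10 knockdown in 5 of 6 cases, against 21.6% of all genes tested, and after RELA knockdown in 1 of 6 (16.7%), against 14.4%. PARP12, a zinc finger mono-ADP-ribosyltransferase, was at 19.7, 18.6 and 18.7 CPM in shNC1 and 24.8, 26.2 and 25.3 CPM in TEX10_sh, a log2 fold change of 0.41 (standard error 0.05, adjusted p = 3.21e-06). At 18.97 and 15.7 CPM in shNC2 and 15.7 and 15.6 CPM in p65_sh its RELA groups overlapped (log2 fold change -0.14 (standard error 0.09, adjusted p = 0.218)), and the effects differed by 0.55 (standard error 0.10, adjusted p = 0.000235). TRIM21, a cytosolic antibody receptor and E3 ligase, was at 14.04, 13.9 and 13.2 CPM in shNC1 and 17.98, 18.6 and 17.6 CPM in TEX10_sh, a log2 fold change of 0.39 (standard error 0.06, adjusted p = 2.22e-05) without overlap. In the RELA experiment it was at 17.2 and 16.2 CPM in shNC2 and 16.5 and 16.1 CPM in p65_sh (log2 fold change -0.03 (standard error 0.08, adjusted p = 0.78)). The difference of 0.42 (standard error 0.09, adjusted p = 0.00118) was lost under 1 of 15 alternatives, without shNC2 replicate 1 at 0.01, in a range of adjusted p from 0.0007 to 0.01.

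TRIM25, an E3 ligase linked to RIG-I activation, was at 205, 211 and 197 CPM in shNC1 and 261, 260.0 and 260.5 CPM in TEX10_sh, with every knockdown library above every control. At 174 and 172 CPM in shNC2 and 187 and 191 CPM in p65_sh the same order held in the RELA experiment. Its log2 fold changes were 0.35 (standard error 0.03, adjusted p = 4.38e-08) and 0.13 (standard error 0.05, adjusted p = 0.0204), of which only the first passed, and the difference was 0.22 (standard error 0.05, adjusted p = 0.00106). TRIM25 shares exon bases with 4 other genes, 538 of them with the antisense gene AC015912.1. PARP14, a mono-ADP-ribosyltransferase, rose in both, at 37.3, 37.6 and 36.9 CPM in shNC1 and 41.8, 41.6 and 40.6 CPM in TEX10_sh and 31.1 and 30.2 CPM in shNC2 and 39.5 and 37.4 CPM in p65_sh. Its fold changes were 0.15 (standard error 0.04, adjusted p = 0.0038) and 0.32 (standard error 0.07, adjusted p = 5.3e-05). The TEX10 call was lost under 5 of 16 alternatives, without shNC1 replicate 1 at 0.0165, without TEX10_sh replicate 1 at 0.016, without TEX10_sh replicate 2 at 0.0171, with DESeq2 and with library totals, in a range of adjusted p from 0.00335 to 0.0178. PARP9 and DTX3L form a complex and are encoded on opposite strands with 217 shared exon bases, whose reads cannot be assigned. Of the pair PARP9 was called, after TEX10 knockdown, at a log2 fold change of 0.21 (standard error 0.05, adjusted p = 0.00201) against 0.05 (standard error 0.05, adjusted p = 0.388) for DTX3L. The PARP9 call was lost under 2 of 16 alternatives, without shNC1 replicate 1 at 0.0114 and without TEX10_sh replicate 1 at 0.0117, in a range of adjusted p from 0.0016 to 0.0117. After RELA knockdown PARP9 was at 16.6 and 16.03 CPM in shNC2 and 18.9 and 19.5 CPM in p65_sh, with both knockdown libraries above both controls. That log2 fold change of 0.23 (standard error 0.08, adjusted p = 0.0207) did not pass, and the difference between the effects was -0.02 (standard error 0.08, adjusted p = 0.878).

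Of the nuclear body proteins, SP100 was at 34.9, 36.1 and 35.3 CPM in shNC1 and 48.9, 48.4 and 49.6 CPM in TEX10_sh, with no overlap and a log2 fold change of 0.46 (standard error 0.04, adjusted p = 3.93e-08). After RELA knockdown it was at 42.4 and 39.3 CPM in shNC2 and 38.5 and 38.1 CPM in p65_sh, knockdown libraries just below controls (log2 fold change -0.09 (standard error 0.06, adjusted p = 0.268)). The difference of 0.55 (standard error 0.06, adjusted p = 1.98e-06) held under every alternative tried. SP100 shares 544 exon bases with the pseudogene HMGB1P3. PML, the scaffold of the same bodies, was not called, with log2 fold changes of 0.06 (standard error 0.04, adjusted p = 0.246) and -0.04 (standard error 0.07, adjusted p = 0.679).

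Across the 42 ISGs tested in both comparisons, 9 rose after both knockdowns: IFIT2, IFIT3, IFIT5, SAMD9, LGALS3BP, ADAR, UBE2L6, DDX58 and PARP14. Of these, only IFIT5, SAMD9 and UBE2L6 kept both calls under every alternative tried. Over all 16573 genes tested in both, 7.63% rose in both. A further 3 (IFITM2, IFITM3 and ISG15) rose after TEX10 knockdown and fell after RELA knockdown, and 0 ISGs showed the other order. Of those 3, only IFITM3 kept both calls under every alternative tried. Over all genes tested in both, 2.75% were called in opposite directions, counted in either order. The difference between the effects was tested in a fit of all 10 libraries. It was called for 13 of 43 ISGs. In 11 of them the TEX10 effect was the higher (IFIT1, OAS3, IFITM2, IFITM3, ISG15, IFIH1, IRF9, PARP12, TRIM21, TRIM25 and SP100), and in 2 the lower (IFITM1 and BST2). The shares over all 17922 genes tested were 11.5% and 8.49%. The experiments had separate controls, and whatever else differed between the experiments cannot be told apart from the knockdowns, so the test removes a shift common to both groups of an experiment and no other.

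**Figure D3:**
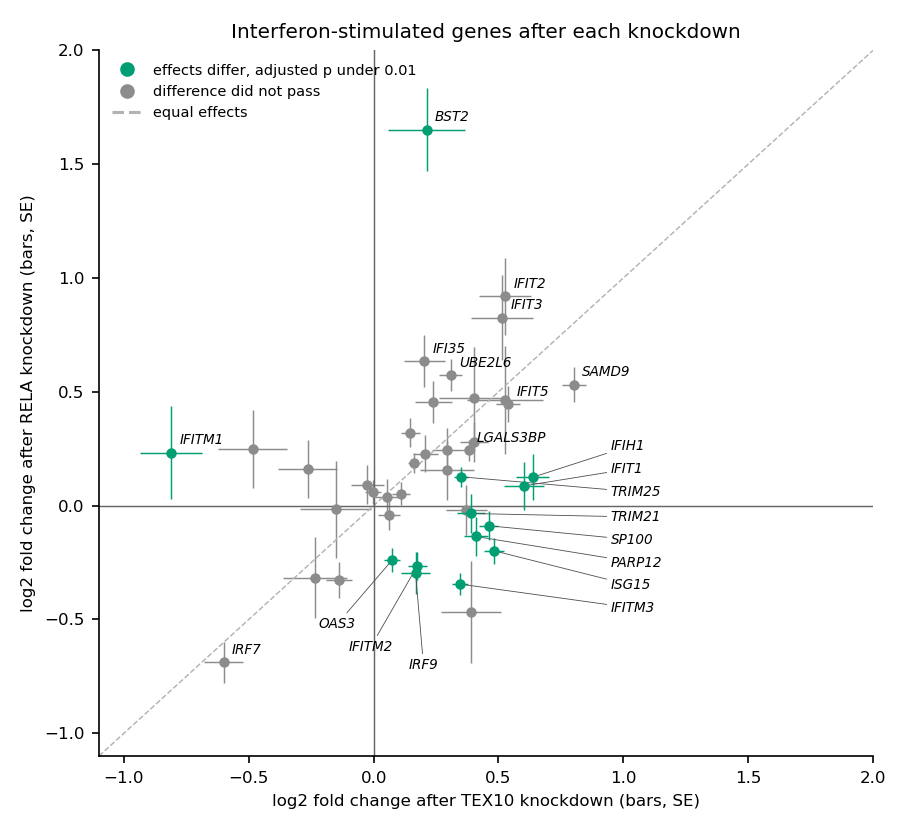
Log2 fold change after TEX10 knockdown (horizontal axis) against that after RELA knockdown (vertical axis) for the 42 ISGs tested in both, with standard errors as bars. Green points are genes whose effects differed at adjusted p under 0.01, and the dashed line marks equal effects. ISG15 and IFITM3 lie right of 0 and below it, BST2 lies far above the line, and IRF7 lies near the line at the lower left.

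The rest of the pathway was counted in a list of 45 genes outside the ISGs, of which 32 were tested. After TEX10 knockdown 9 rose, 8 fell and 15 did not pass, and after RELA knockdown 4 rose, 8 fell and 20 did not pass. The shares that rose and fell were 28.1% and 25% after TEX10 knockdown, near the 21.6% and 19.0% of all genes, and 12.5% and 25% after RELA knockdown, against 14.4% and 15.8%. The medians of the log2 fold change were -0.01 and 0.003. Of 9 interferon genes, 8 (IFNB1, IFNA1, IFNA2, IFNK, IFNG, IFNL1, IFNL2 and IFNL3) were at 3 reads or fewer in every library and were not tested. IFNE, an epithelial type I interferon, was the exception, at 0.251, 0.314 and 0.296 CPM in shNC1 and 0.632, 0.398 and 0.723 CPM in TEX10_sh and 0.486 and 0.277 CPM in shNC2 and 2.02 and 1.72 CPM in p65_sh. Its p65_sh libraries stood above their controls, from 15 and 8 reads in shNC2 and 66 and 49 in p65_sh. In both comparisons IFNE passed the filter only through the knockdown libraries, so its call adds nothing to the count of rises as support. That call is among the 4 rises counted after RELA knockdown. The log2 fold change was 1.43 (standard error 0.21, adjusted p = 6.7e-08) after RELA knockdown, from 1.06 to 2.29 over the alternatives, and 0.45 (standard error 0.16, adjusted p = 0.0245) after TEX10 knockdown, from 0.29 to 1.03.

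Of the 9 receptor and kinase genes, 2 rose (IFNAR1 and JAK2; 22.2% against 21.6% of all genes) and 4 fell (IFNAR2, IFNGR1, IFNGR2 and IFNLR1; 44.4% against 19.0%) after TEX10 knockdown. IFNAR1 and IFNAR2, the chains of the type I receptor, went opposite ways, at log2 fold changes of 0.22 (standard error 0.04, adjusted p = 0.000108) and -0.31 (standard error 0.06, adjusted p = 0.000339). IFNGR2, a chain of the interferon gamma receptor, was at 39.9, 40.1 and 42.3 CPM in shNC1 and 32.04, 29.5 and 29.8 CPM in TEX10_sh, a log2 fold change of -0.42 (standard error 0.05, adjusted p = 9.32e-07). JAK2, the kinase bound to that chain, rose by 0.31 (standard error 0.06, adjusted p = 0.000407) on the log2 scale. After RELA knockdown 3 fell (IFNGR1, IL10RB and JAK1; 33.3% against 15.8% of all genes) and 6 did not pass. IL10RB, the chain shared by the receptors of type III interferon and of IL-10, had the largest fall of the list, at 24.2 and 21.8 CPM in shNC2 and 6.42 and 6.94 CPM in p65_sh. Both p65_sh libraries were far below the controls, with a log2 fold change of -1.71 (standard error 0.09, adjusted p = 5.41e-23), while the TEX10 groups overlapped (0.04 (standard error 0.05, adjusted p = 0.602)). JAK1, the kinase common to all interferon receptors, was at 123 and 124 CPM in shNC2 and 88.8 and 83.9 CPM in p65_sh, a log2 fold change of -0.52 (standard error 0.05, adjusted p = 3.89e-13) against -0.02 (standard error 0.03, adjusted p = 0.551) after TEX10 knockdown. IFNGR1 fell in both, by log2 fold changes of -0.19 (standard error 0.04, adjusted p = 0.000825) and -0.51 (standard error 0.07, adjusted p = 1.51e-08).

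**Figure D4:**
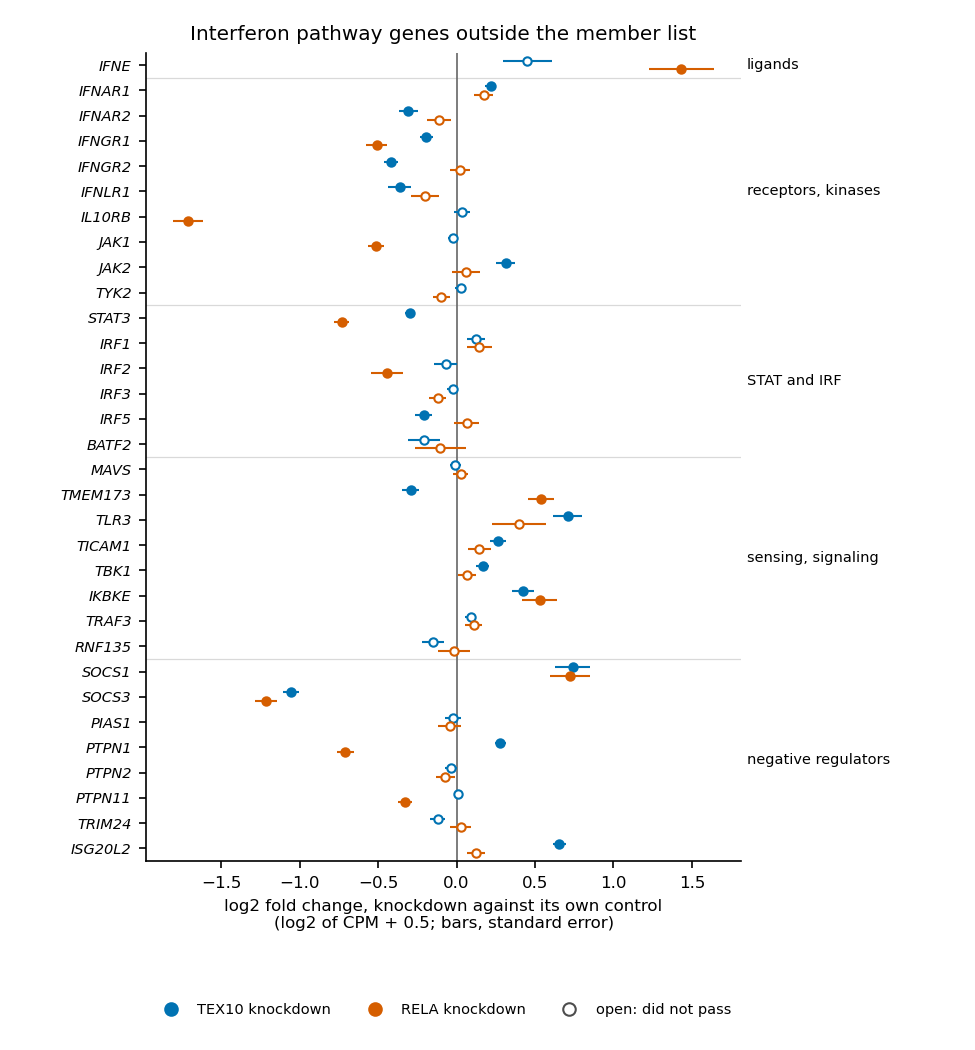
Log2 fold change (horizontal axis, log2 of CPM + 0.5) of the 32 tested pathway genes outside the ISG list after TEX10 (blue) and RELA (orange) knockdown, by role, with standard errors as bars and filled points for adjusted p under 0.01. IL10RB and SOCS3 lie farthest to the left, and SOCS1 lies right of 0 in both.

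Of 6 tested transcription factors of that list, 2 fell after TEX10 knockdown (33.3% against 19.0% of all genes). After RELA knockdown 2 fell (33.3% against 15.8%), and the others did not pass in either comparison. STAT3 fell in both, by log2 fold changes of -0.30 (standard error 0.03, adjusted p = 6.47e-07) and -0.73 (standard error 0.05, adjusted p = 2.96e-19). After TEX10 knockdown IRF5 also fell (-0.21 (standard error 0.05, adjusted p = 0.00371)), a call lost under 2 of 16 alternatives, without shNC1 replicate 2 at 0.0141 and without TEX10_sh replicate 3 at 0.0217, in a range of adjusted p from 0.00126 to 0.0217. IRF2, a repressor that occupies the ISRE, fell after RELA knockdown, with a log2 fold change of -0.44 (standard error 0.10, adjusted p = 0.000365). The IRF2 call was lost under 3 of 14 alternatives, without p65_sh replicate 1 at 0.0106, with no filter on low values and with DESeq2, in a range of adjusted p from 0.000108 to 0.0172. IRF1, a factor that binds the ISRE, had log2 fold changes of 0.12 (standard error 0.06, adjusted p = 0.0772) and 0.14 (standard error 0.08, adjusted p = 0.146), BATF2 had -0.21 (standard error 0.10, adjusted p = 0.102) after TEX10 knockdown, and IRF8 had 0 reads in every library. IRF3 had log2 fold changes of -0.03 (standard error 0.04, adjusted p = 0.578) and -0.12 (standard error 0.05, adjusted p = 0.067).

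Of 12 sensing and signaling genes 8 were tested. After TEX10 knockdown 4 rose (50% against 21.6% of all genes) and 1 fell (12.5% against 19.0%). After RELA knockdown 2 rose (25% against 14.4%) and 0 fell (against 15.8%). TLR3, the endosomal receptor for duplex RNA, was at 3.17, 3.19 and 3.11 CPM in shNC1 and 5.45, 5.68 and 5.29 CPM in TEX10_sh, with every knockdown library above every control (log2 fold change 0.71 (standard error 0.09, adjusted p = 6.16e-06)). Its adaptor TICAM1 and the kinases TBK1 and IKBKE rose as well, at 0.27 (standard error 0.05, adjusted p = 0.000279), 0.17 (standard error 0.04, adjusted p = 0.00235) and 0.42 (standard error 0.07, adjusted p = 7.93e-05). After RELA knockdown IKBKE rose by 0.53 (standard error 0.11, adjusted p = 9.39e-05), a call lost under 2 of 14 alternatives, without p65_sh replicate 2 at 0.0166 and with no filter on low values, in a range of adjusted p from 1.14e-05 to 0.0166. TMEM173 (STING), the adaptor of cytosolic DNA sensing, moved in opposite directions, at 21.5, 20.5 and 20.8 CPM in shNC1 and 16.8, 16.5 and 17.7 CPM in TEX10_sh and 13.3 and 15.1 CPM in shNC2 and 20.6 and 20.9 CPM in p65_sh. The log2 fold changes were -0.29 (standard error 0.05, adjusted p = 0.000195) and 0.54 (standard error 0.08, adjusted p = 3.98e-07). MAVS, the adaptor of RIG-I and MDA5, was not called (log2 fold changes -0.01 (standard error 0.03, adjusted p = 0.876) and 0.03 (standard error 0.05, adjusted p = 0.712)). TRAF3 was not called either (log2 fold changes 0.09 (standard error 0.04, adjusted p = 0.0582) and 0.11 (standard error 0.05, adjusted p = 0.101)). The DNA sensors MB21D1 (cGAS), IFI16 and AIM2 reached at most 0.0971, 0.245 and 0 CPM and were not tested.

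Among negative regulators, SOCS1 and SOCS3, feedback inhibitors of JAK kinases, went opposite ways, and each did so in both experiments. SOCS1 was at 3.92, 4.42 and 3.08 CPM in shNC1 and 6.74, 6.14 and 7.03 CPM in TEX10_sh and 3.79 and 3.95 CPM in shNC2 and 6.76 and 6.66 CPM in p65_sh, higher in every knockdown library, with log2 fold changes of 0.74 (standard error 0.11, adjusted p = 3.27e-05) and 0.72 (standard error 0.13, adjusted p = 5.52e-06). SOCS3 was at 32.5, 32.2 and 35.2 CPM in shNC1 and 15.9, 16.1 and 15.3 CPM in TEX10_sh and 39.98 and 39.7 CPM in shNC2 and 17.2 and 16.6 CPM in p65_sh, lower in every knockdown library, with log2 fold changes of -1.06 (standard error 0.05, adjusted p = 9.83e-11) and -1.21 (standard error 0.07, adjusted p = 7.96e-22). PTPN1, a phosphatase that acts on JAK2 and TYK2, rose after TEX10 knockdown (0.28 (standard error 0.03, adjusted p = 2.64e-06)) and fell after RELA knockdown (-0.71 (standard error 0.05, adjusted p = 7.38e-17)). PTPN11 (SHP2) fell only in the RELA comparison (-0.33 (standard error 0.04, adjusted p = 6.33e-09)). ISG20L2 was counted in this list but is an exonuclease related to ISG20 and not an inhibitor of JAK kinases. ISG20L2 rose only in the TEX10 comparison (0.65 (standard error 0.04, adjusted p = 2.19e-09)).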

How the data were processed

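The authors deposited CPM values (counts per 1e6 reads), scaled between libraries. Alignment used STAR 2.4.2a by the paper, with hg19, RSEM 1.2.29 and edgeR 3.8.5 in the submitters' processing notes. The CPM steps gave whole reads for 100% of values above 0 (within 0.01), and these reads were used for the filter and the count tests. The library kit does not mark strand. Each knockdown was tested against its own controls with the trended empirical Bayes test of limma 3.58.1 (R 4.3.3) on log2(CPM + 0.5), after filterByExpr of edgeR 4.0.16 (minimum count 10, total 15), with Benjamini-Hochberg adjustment over all genes tested and a call at adjusted p under 0.01. The difference between the effects used all 10 libraries. Simulated data had 50 genes changed at each of 1.2, 1.5, 2 and 4-fold, for the difference in TEX10_sh only. From these, limma recovered 54%, 74%, 86% and 94% in the TEX10 comparison (17267 genes) and 46%, 68%, 86% and 96% in the RELA comparison (16790). For the difference it recovered 16%, 62%, 74% and 90% (17642). Genes left unchanged in simulation were also called, 4 in the TEX10 comparison, 1 in the RELA comparison and 7 for the difference. In the real data 40.6%, 30.2% and 20.0% of genes were called, far more than were changed in simulation. The adjusted p threshold is then looser, so these rates do not give the power of the tests here.

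Library values are given for members called with a mean of at least 1 CPM and a log2 fold change of at least 0.3 in size (at most 20 per comparison) and for the tested IFIT, OAS, MX, IFITM and ISG15 system genes. Of each pathway list up to 4 genes with the smallest adjusted p per comparison are named. Values of other ISGs were added after they were seen. Some genes of the pathway lists are not reported here. The members and lists were chosen with earlier results of these data known. Alternatives were pseudocounts of 0.1 and 1, no filter, a mean of at least 1 CPM, the quasi-likelihood test of edgeR with TMM or RLE factors, DESeq2 1.42.0, library totals, a fit of all 10 libraries, the replicate number as a block, other thresholds and leaving out each library. For the difference, the pseudocounts, filters, edgeR test, thresholds and left-out libraries were tried. The edgeR test called 7128 genes after TEX10 knockdown and 5062 after RELA knockdown, against 7004 and 5083 by limma. Sequences are from RefSeq on GRCh38.p14, and shared exons are from GENCODE v29. No coordinates of the files were used.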

Additional observations from a re-analysis of the deposited data

Results flagged for a closer look

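The results below are those in which the effect of TEX10 knockdown differed from that of RELA knockdown by a test of the difference itself, in a limma fit of all 10 libraries with 4 group means. Each value is the TEX10 effect minus the RELA effect on the log2 scale.

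Among ISGs the TEX10 effect was the higher for IFITM3 by 0.69, ISG15 by 0.68, SP100 by 0.55, PARP12 by 0.55, IFIT1 by 0.52, IFIH1 by 0.51, IRF9 by 0.46, IFITM2 by 0.44, TRIM21 by 0.42, OAS3 by 0.31 and TRIM25 by 0.22. The value was -1.44 for BST2 and -1.04 for IFITM1, the 2 ISGs in which the RELA effect was the higher. Only IFITM2, IFITM3 and ISG15 were called in each comparison with opposite signs. In the other 10 genes at least 1 of the effects was itself not called. The difference was lost under 9 of 15 alternatives for IFIT1 and under 3 of 15 for IFITM1. For IFIH1, IRF9, TRIM21 and BST2 it was lost under 1 of 15 each.

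Among the pathway genes outside the ISGs, the TEX10 effect was the higher for IL10RB by 1.75, PTPN1 by 0.99, ISG20L2 by 0.53, JAK1 by 0.49, STAT3 by 0.44, PTPN11 by 0.34 and IFNGR1 by 0.32. It was the lower for IFNE (-0.98), TMEM173 (-0.83) and IFNGR2 (-0.44). PTPN1 and TMEM173 were called in each comparison with opposite signs, and STAT3 and IFNGR1 were called lower in both. The IFNE difference was lost under 6 of 14 alternatives, without TEX10_sh replicate 2 at 0.0147, without shNC2 replicate 2 at 0.0351, without p65_sh replicate 1 at 0.0271, with a pseudocount of 0.1, with no filter on low values and with edgeR, in a range of adjusted p from 0.00163 to 0.0792, and the IFNGR1 difference was lost under 2 of 15 alternatives, without shNC2 replicate 1 at 0.0254 and without p65_sh replicate 2 at 0.0175, in a range of adjusted p from 0.00181 to 0.0254. IFNE passed the filter only through the knockdown libraries. Whatever else differed between the experiments cannot be told apart from the knockdowns in these differences.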

How the results depend on the processing

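No called gene changed direction under any alternative. Of 99 calls of named genes, 71 were kept under every alternative tried and 28 were lost under at least 1, and 6 of the 31 results not called gained a call under at least 1. The cause of each change was not tested. With a fold change of at least 1.5 as a second condition the ISG counts fell to 4 higher after TEX10 knockdown, 4 higher and 1 lower after RELA knockdown, and 2 higher for the difference. The count of ISGs lower after RELA knockdown was 4 with no filter on low values and 4 with DESeq2, and 4 to 6 when 1 library was left out (4 without shNC2 replicate 2). The count lower for the difference was 0 with no filter (by limma, with 6 at an unadjusted p under 0.05, and IFITM1 and BST2 at adjusted p = 0.0238 and 0.0101) against 2 with edgeR, 6 at an adjusted p under 0.05, and 1 to 4 when 1 library was left out: 4 without shNC1 replicate 2 and 1 without shNC2 replicate 1 or p65_sh replicate 2.

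Directions that reversed belonged to effects not called: with 1 library left out, the RELA effect ran from -0.24 to 0.21 for MX1, -0.0665 to 0.24 for IFIT1, -0.10 to 0.0632 for USP18 and -0.00242 to 0.47 for IFITM1, and the difference from -0.0432 to 0.23 for IFIT5. With the replicate number as a block, 22 ISGs were higher and 3 lower after TEX10 knockdown, and 14 and 7 after RELA knockdown. IFI44 lost its call after TEX10 knockdown (adjusted p = 0.0114). The block added IFNAR1 and TEX10 itself after RELA knockdown (log2 fold changes 0.17 and 0.15, adjusted p = 0.0023 and 0.00243). Deviations of same-numbered libraries correlated at -0.02 to 0.04, so the numbers were not taken as pairs. Other scalings moved the median of all genes by under 0.03. Where leaving out 1 library left a group with 1, that library was assumed to vary like the rest. In simulation 16% of 1.2-fold and 62% of 1.5-fold changes were recovered for the difference.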
